A study of Mus musculus with 4 samples.

Results

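The 10 genes described here make up a compact oxygen-sensing circuit. They are the subunits of the hypoxia-inducible factors (Hif1a, Epas1 and Arnt), the 3 prolyl hydroxylases that act as oxygen sensors (Egln1, Egln2 and Egln3) and 4 genes known to be switched on by the factors (Vegfa, Ndrg1, Bnip3 and Kdm3a). They were picked by name from the pathway, out of 18193 genes with a probe set of a single symbol. Earlier results of these data were known when they were picked. All 10 were bright enough to be tested, as were 10872 genes in all. Each gene is given by its brightest probe set, the one with the highest mean over the 4 arrays, and its other probe sets serve as a check.

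Affymetrix arrays had been hybridised with RNA from group 2 innate lymphoid cells (ILC2), lymphocytes without rearranged antigen receptors that secrete type 2 cytokines. Both groups came from C57BL/6 mice. The control group held cells of littermates (2 arrays), and the Ets1-deleted group held cells of mice lacking Ets1, a transcription factor of the ETS family (2 arrays). Both were grown for 2 weeks with IL-7 and IL-33 on OP9-DL1, bone marrow stroma that presents a Notch ligand, and RNA was taken from the ICOS-positive cells. The sources used here do not give how Ets1 was deleted, the age of the mice, whether animals were pooled, or the oxygen level of the cultures.

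In well-oxygenated cells the prolyl hydroxylases use oxygen to mark the alpha subunits Hif1a and Epas1, the von Hippel-Lindau ubiquitin ligase binds the mark, and the subunits are degraded. When oxygen falls, the alpha subunits escape, pair with Arnt and bind short DNA elements with the core ACGTG or GCGTG near their target genes. Egln3 and, to a lesser degree, Egln1 are themselves targets of the factors, so the sensors are part of a feedback loop. The circuit works mainly through protein stability, which arrays do not measure: every value below is a transcript level.

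Ets1 was lower in the deleted arrays, with intensities of 138.1 and 180.2 units against 1272 and 1231 in the controls, which checks the labels. The 12 measured ILC2 markers were bright on all arrays, and of these 6 were called higher and 2 lower. Over all tested genes 13.9% were called higher and 12.8% lower. Gata3, the defining transcription factor, was not called (0.08), Thy1 rose by 1.91, Rora by 1.29 and Il17rb by 0.93, and the lower ones were Klrg1 (-1.6) and Icos, used in the sort (-0.38, limma adjusted p = 0.0233). Il1rl1 and Areg were not analysed here. Differences below are log2 intensity, Ets1-deleted minus control, ± SE from limma with n = 2 arrays per group, and a gene is said to be called when its Benjamini-Hochberg adjusted p over all tested genes was under 0.05. The labels do not say whether the 2 arrays of a group came from different animals or cultures. The p-values therefore measure only the spread between these arrays, which may be technical.

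Of the 10 genes, 6 were called higher in the Ets1-deleted arrays, 2 were called lower and 2 were not called. Over all tested genes 26.7% were called, 13.9% higher and 12.8% lower, so calls were common on these arrays. The 6 higher genes were Hif1a, Egln1, Egln3, Vegfa, Ndrg1 and Bnip3, and the lower ones were Epas1 and Arnt. The 2 groups of arrays did not overlap in any of the 10 genes, against 62.6% of all tested genes. The 10 genes were chosen with earlier results of these data known, so comparisons with all tested genes are a description. The median difference of the 10 genes was 0.72, and that of all tested genes was 0. The plot of intensity by array shows these values.

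**Figure D1:**
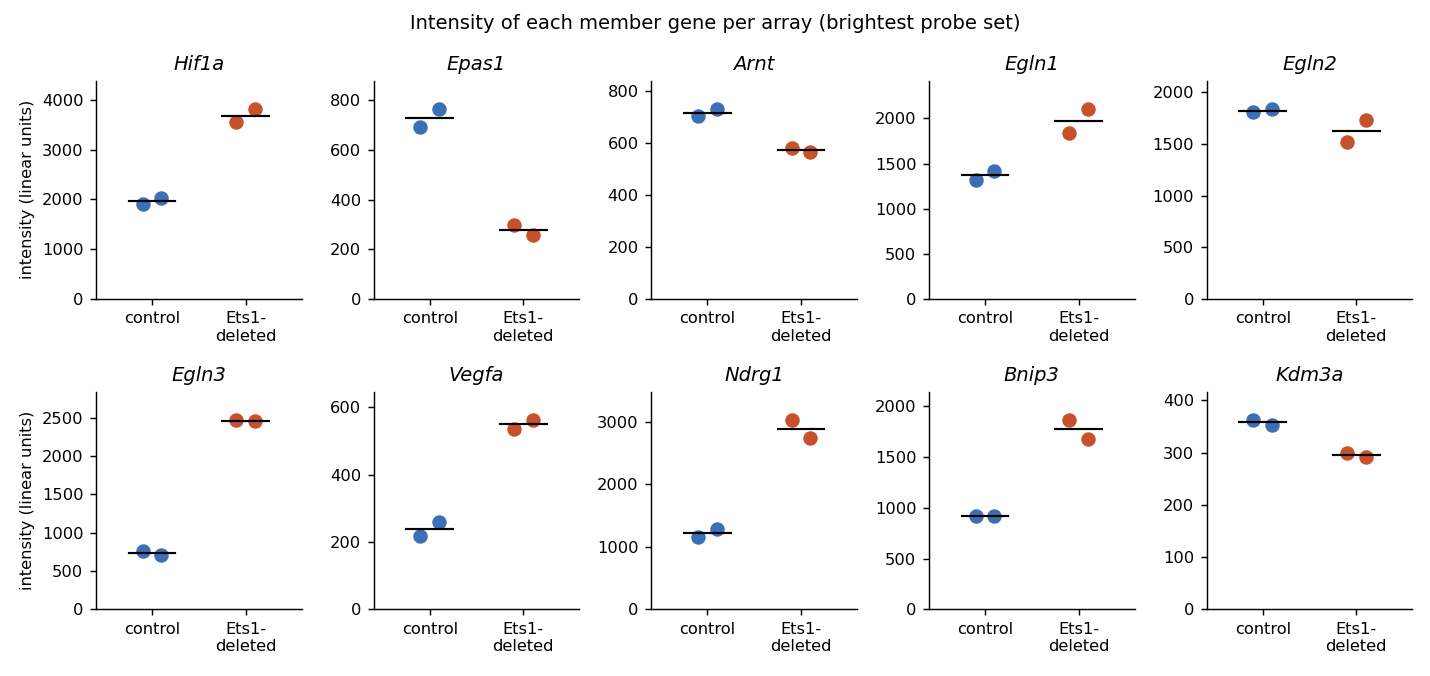
Intensity in linear units (vertical axes, from 0, with a scale of its own for each gene because probe sets cannot be compared in level) of the 10 genes on the 2 control arrays (blue) and the 2 Ets1-deleted arrays (orange), with the group mean as a line. The deleted arrays lie above the controls in 6 called genes, most steeply in Egln3 (739 against 2462 on average), and below them in Epas1, Arnt, Egln2 and Kdm3a.

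Among the factor subunits, the alpha subunits moved in opposite directions. Hif1a, the broadly expressed alpha subunit, read 1900 and 2018 intensity units in the controls and 3557 and 3810 in the Ets1-deleted arrays. Both deleted arrays were well above both controls, a 1.88-fold rise (0.91 ± 0.11, limma adjusted p = 6.83e-05). Epas1, which encodes HIF-2 alpha, the second alpha subunit, read 692.5 and 763.5 units in the controls and 297.1 and 257.4 in the deleted arrays. It was 2.63-fold lower (-1.39 ± 0.12, limma adjusted p = 3.67e-06), the 69th lowest difference of the 10872 tested genes. Averaging all probe sets of each gene kept both calls (-1.12 for Epas1 and 0.56 for Hif1a).

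The probe sets of the alpha subunits kept these directions but not the same sizes. The other probe set of Epas1 fell by 0.84 on the log2 scale. Of the 3 other probe sets of Hif1a, 2 were called higher, by 0.61 and 0.48. The remaining one read 1877 and 1515 units in the controls and 2217 and 1831 in the deleted arrays, where the groups overlapped, and gave 0.26 (limma adjusted p = 0.208).

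Arnt, the shared beta subunit with which either alpha subunit pairs, read 704.2 and 728.2 units in the controls and 580.2 and 563.8 in the deleted arrays. It was 1.25-fold lower (-0.32 ± 0.11, limma adjusted p = 0.0446). The Arnt call was lost when any 1 of the 4 arrays was left out, with limma adjusted p between 0.0806 and 0.231 and values between -0.35 and -0.30. Averaging the probe sets of each gene also ended the call (-0.17, limma adjusted p = 0.132). Of its 3 other bright probe sets, 2 gave -0.29 and -0.25 and 1 gave 0.13 (limma adjusted p = 0.438), none of them called.

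Of the 3 oxygen sensors, Egln3 and Egln1 were called higher and Egln2 was not called. Egln3, the hydroxylase that is most strongly induced by low oxygen, read 762.9 and 715.2 units in the controls and 2470 and 2454 in the deleted arrays. The deleted arrays were alike and far above both controls, a 3.33-fold rise (1.74 ± 0.11, limma adjusted p = 2.8e-07). This was the largest difference of the 10 genes in either direction and the 93rd highest of all tested genes. The other Egln3 probe set gave 1.67, from 355 and 324.5 units in the controls to 1141 and 1016.

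Egln1, the main sensor that sets alpha subunit levels in most cells, read 1316 and 1418 units in the controls and 1839 and 2100 in the deleted arrays. Its brightest probe set was 1.44-fold higher (0.52 ± 0.12, limma adjusted p = 0.00534). Its other probe set read 1301 and 1241 units in the controls and 1148 and 1314 in the deleted arrays, which overlapped, and gave -0.05 (limma adjusted p = 0.814). When both probe sets were averaged the call was lost (0.24, limma adjusted p = 0.0801), so the Egln1 rise rests on 1 of its 2 probe sets. Egln2, the hydroxylase that is not known to be induced by low oxygen, read 1806 and 1835 units in the controls and 1517 and 1734 in the deleted arrays. It was not called (-0.17, 95% interval -0.42 to 0.08, limma adjusted p = 0.327).

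Of the 4 target genes, 3 rose and 1 did not pass the test. Vegfa, the growth factor that drives new blood vessels, read 217.9 and 258.1 units in the controls and 536.6 and 561.8 in the deleted arrays. The deleted arrays were over 2 times the controls, a 2.32-fold rise (1.21 ± 0.12, limma adjusted p = 1.23e-05). The other Vegfa probe set gave 1.5, with the deleted arrays further apart from each other at 495.4 and 328.4 units.

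Ndrg1, a stress-responsive gene of cell differentiation, read 1164 and 1280 units in the controls and 3028 and 2750 in the deleted arrays. It was 2.36-fold higher (1.24 ± 0.11, limma adjusted p = 7.24e-06). This brightest probe set is of a kind (suffix x_at) that can share probes with other transcripts, so its other 4 probe sets matter: all 4 were called higher, by 0.89 to 1.53. Those with the plain suffix at gave 1.27 and 0.89, and those with the suffix s_at gave 1.29 and 1.53. The 5 Ndrg1 probe sets thus showed the same direction at different brightness.

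Bnip3, which encodes a mitochondrial protein that promotes removal of mitochondria, read 913.2 and 920.2 units in the controls and 1859 and 1677 in the deleted arrays. It was 1.93-fold higher (0.95 ± 0.11, limma adjusted p = 5.46e-05), and it has 1 probe set. Kdm3a, a histone H3 lysine demethylase that low oxygen induces in many cells, went the other way from the remaining targets. It read 362.3 and 353.8 units in the controls and 299.2 and 292.2 in the deleted arrays. The groups were apart but the difference was small and not called (-0.28, 95% interval -0.51 to -0.04, limma adjusted p = 0.0814), on its 1 probe set. When the probe sets of every gene were averaged, which leaves the value of Kdm3a as it is but changes the fit, Kdm3a was called lower (limma adjusted p = 0.0261).

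**Figure D2:**
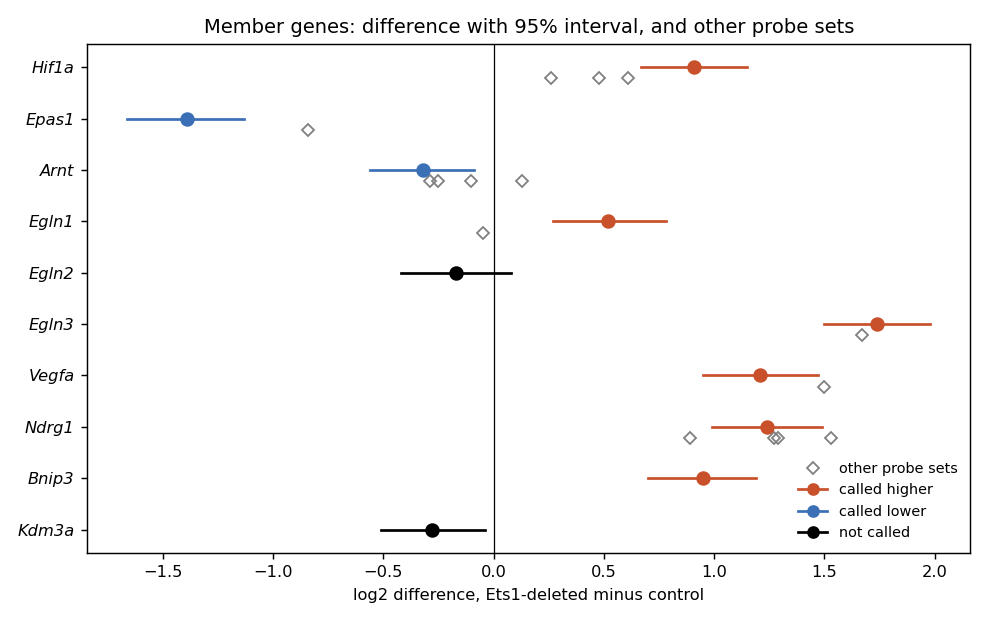
Log2 difference, Ets1-deleted minus control (horizontal axis), of the 10 genes on their brightest probe set (circles) with the 95% interval from limma (lines), and of their other probe sets (open diamonds). Egln3 (1.74), Ndrg1 (1.24) and Vegfa (1.21) lie farthest to the right with their other probe sets at 0.89 or above, Epas1 (-1.39) lies farthest to the left, and the probe sets of Egln1 (0.52 and -0.05) disagree.

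Over all 25 probe sets of the 10 genes, 24 were bright enough to test. Of these, 14 were called higher, 2 lower and 8 were not called, with 1 row per probe set in the fit, where 24.2% of 22493 probe sets were called. The 14 belonged to Hif1a (3 of 4), Egln1 (1 of 2), Egln3 (2 of 2), Vegfa (2 of 2), Ndrg1 (5 of 5) and Bnip3 (1 of 1), and both that were lower to Epas1. No Arnt probe set was called in that fit, its brightest having a limma adjusted p of 0.0509.

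Within the groups the arrays lay close together. The within-group SD on the log2 scale ran from 0.0242 for Kdm3a to 0.126 for Vegfa, around the median of 0.103 over all tested genes. Leaving out each array in turn kept the calls of Hif1a (0.86 to 0.96), Epas1 (-1.5 to -1.29), Egln1 (0.43 to 0.62), Egln3 (1.69 to 1.78), Vegfa (1.09 to 1.33), Ndrg1 (1.17 to 1.31) and Bnip3 (0.87 to 1.02). In these fits the lone array of a group borrows its spread from the other group.

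**Figure D3:**
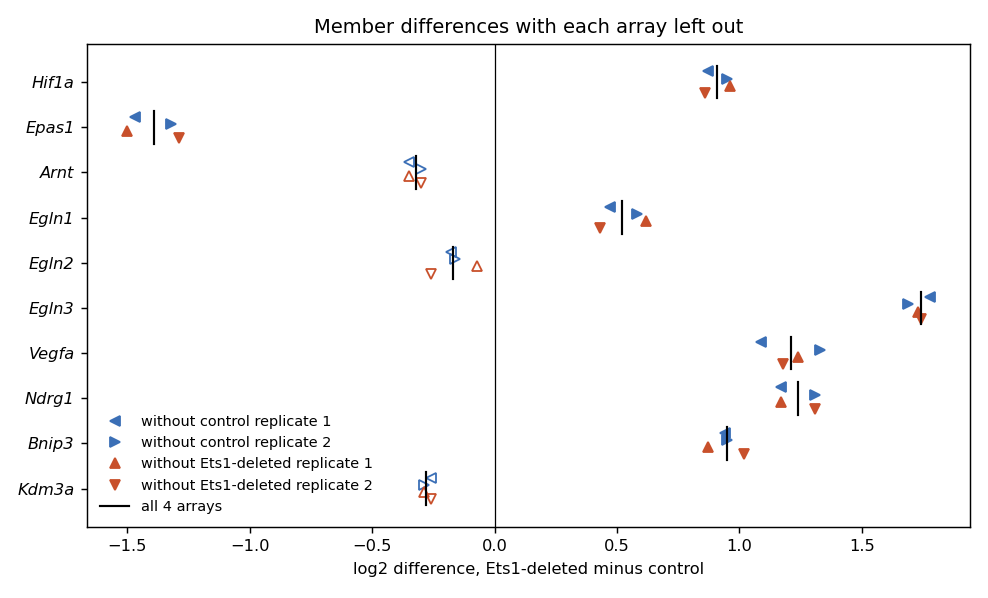
Log2 difference, Ets1-deleted minus control (horizontal axis), of each gene with 1 of the 4 arrays left out (triangles, filled where the limma adjusted p was under 0.05) and with all 4 arrays (black bars). Egln3 stays between 1.69 and 1.78, while the 4 triangles of Arnt, Egln2 and Kdm3a are open.

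The promoter windows of the members show how unevenly the factors' core element is spread in the stretch just upstream of listed start sites. Bnip3 is shown as the rising target with the densest matches and Egln3 as the steepest riser. Egln2 is shown as a gene that was not called, with 4 matches in its first window. The sequences are the 250 bases before the first listed start site, 5′ to 3′ on the gene's strand, from RefSeq (GRCm38.p6, all on the minus strand), with ACGTG or GCGTG on either strand in capitals.
Bnip3, chr7:138909507-138909756: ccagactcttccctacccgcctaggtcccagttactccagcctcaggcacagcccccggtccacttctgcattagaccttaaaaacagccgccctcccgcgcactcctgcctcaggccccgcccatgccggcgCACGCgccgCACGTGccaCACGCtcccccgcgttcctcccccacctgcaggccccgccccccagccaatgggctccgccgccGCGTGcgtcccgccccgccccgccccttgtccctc
Egln3, chr12:54203875-54204124: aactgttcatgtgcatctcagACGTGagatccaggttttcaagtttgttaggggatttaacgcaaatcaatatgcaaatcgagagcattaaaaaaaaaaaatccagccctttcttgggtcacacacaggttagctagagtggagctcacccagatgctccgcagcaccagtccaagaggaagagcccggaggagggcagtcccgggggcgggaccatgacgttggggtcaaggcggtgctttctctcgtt
Egln2, chr7:27166803-27167052: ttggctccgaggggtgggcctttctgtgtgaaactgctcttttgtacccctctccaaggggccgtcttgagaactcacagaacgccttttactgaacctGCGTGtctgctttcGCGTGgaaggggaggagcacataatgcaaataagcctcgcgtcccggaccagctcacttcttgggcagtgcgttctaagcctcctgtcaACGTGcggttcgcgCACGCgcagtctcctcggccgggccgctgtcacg

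Bnip3 held 5 matches, counting the palindrome CACGTG at -108 to -103 once on each strand. Egln3 held 1, at -229 to -225, and Egln2 held 4, from -151 to -30. Hif1a held 3 (again with a CACGTG counted on both strands), Egln1 2, Arnt 1 and the first window of Kdm3a 1. The first Vegfa window held 0 and its second window 2. That second window lies before another listed start site, inside the span of the gene. Some other windows also lie inside their gene, among them that of Hif1a and the second of Egln2. Windows of 1 gene can overlap each other. Of the 12 windows listed for 8 of the 10 genes, 9 held a match, against 38.6% of 32851 windows of the same length over all genes. The first windows of Bnip3, Hif1a, Egln1, Egln3 and Vegfa, all called higher, held 5, 3, 2, 1 and 0. Those of Egln2, Arnt and Kdm3a held 4, 1 and 1. Whether the matches bear on the transcripts was not tested. A match is only a run of letters, elements farther from the start site were not examined, and Epas1 and Ndrg1 have no window here.

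Beyond the 10 genes, the partners and regulators of the factors were called about as often as other genes. Of 24 tested regulators, 4 were called higher and 3 lower (29.2%, near the 26.7% of all tested genes), with a median of 0.03. The largest rise was in Arnt2, a relative of Arnt that can also pair with alpha subunits. Its arrays read 131.8 and 156.6 units in the controls and 565.2 and 480.8 in the deleted group (1.86 ± 0.13, limma adjusted p = 6.29e-07), and its 3 bright probe sets gave 1.28 to 1.86. Arnt2 thus rose while the brightest Arnt probe set was lower.

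Cited2, an inhibitor that competes with the factors for their coactivators, read 2242 and 2292 units in the controls and 1192 and 1520 in the deleted arrays (-0.75 ± 0.13, limma adjusted p = 0.00101), although its other bright probe set gave -0.14. The coactivator genes went both ways: Ep300 rose by 0.42 and Crebbp fell by 0.44. Arntl, a clock partner of the same protein family, rose by 0.53, with -0.15 on its other bright probe set. Os9 rose by 0.40, and Siah2, a ubiquitin ligase gene that targets the hydroxylases, fell by 0.42. Vhl, of the ligase that binds marked alpha subunits, and Hif1an, the asparaginyl hydroxylase, did not pass the test. Vhl gave 0.18 (limma adjusted p = 0.275) and Hif1an -0.05 (limma adjusted p = 0.845). Without Ets1-deleted replicate 1 only 2 regulators were called higher, and without Ets1-deleted replicate 2 only 1 lower.

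Other known targets of the factors, outside glycolysis, included many genes that rose. Of 42 tested, 23 rose and 2 fell (59.5% called, beside 26.7% of all tested genes), with a median of 0.44. All but 1 of the 42 were bright in both controls, and of these 41, 22 rose and 2 fell. The list was drawn up with earlier results of these data known, so its direction is a description. Plin2, which coats lipid droplets, rose by 3.28 ± 0.12, from 218.2 and 251.8 units in the controls to 2462 and 2117 (limma adjusted p = 1.03e-08). Hilpda, which slows lipid droplet breakdown in low oxygen, rose by 1.57, the clock repressor gene Bhlhe40 by 1.66 and Ankrd37 by 1.38.

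Adm, the gene of the vasodilator peptide adrenomedullin, rose by 1.73, although its other bright probe set gave 0.59. The protein-folding oxidase gene Ero1a rose by 1.2, from 2322 and 2481 units to 6024 and 5039, and all 3 of its bright probe sets lay above 0. Fam162a rose by 1.16, the adenylate kinase gene Ak4 by 1.35 and the collagen-modifying Plod2 by 0.98. The fallers were Stc2, a secreted glycoprotein gene (-1.25, with 3 of 3 bright probe sets below 0), and Tmem45a (-0.93). Car9, a carbonic anhydrase gene that is often used as a marker of low oxygen, read 142.6 and 164.8 units in the controls and 185.2 and 141 in the deleted arrays, with overlap (0.08, limma adjusted p = 0.747). Ddit4, another such gene, gave -0.11 (limma adjusted p = 0.636). The target list thus held genes that did not pass the test beside those that rose.

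Of 19 glycolytic targets, 8 rose and 0 fell in the limma fit (42.1% called, beside 26.7% of all tested genes), with a median of 0.32. This list too was drawn up with earlier results of these data known, so its direction is a description. At an unadjusted limma p under 0.05, 13 of the 19 differed, as did 37.7% of all tested genes. Of the 13, Slc2a3 and Pfkfb3 were lower and the rest higher. Hexokinase 2 (Hk2), which traps glucose in the cell, rose by 1.30 ± 0.11, from 325.5 and 316.1 units to 763.1 and 819.2 (limma adjusted p = 3.36e-06). The lactate exporter gene Slc16a3 rose by 0.82, Pfkp by 0.79, the glucose transporter gene Slc2a1 by 0.79 and Eno2 by 0.75. Pdk1, which holds pyruvate back from the mitochondria, rose by 0.63. Pgk1 rose by 0.32, with its 3 bright probe sets between 0.26 and 0.81, and Ldha gave 0.33 (limma adjusted p = 0.0612). Slc2a3 (-0.30) and Pfkfb3 (-0.24) lay below 0 and were not called, with limma adjusted p of 0.0928 and 0.131. Without control replicate 1, 1 glycolytic gene was called lower.

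**Figure D4:**
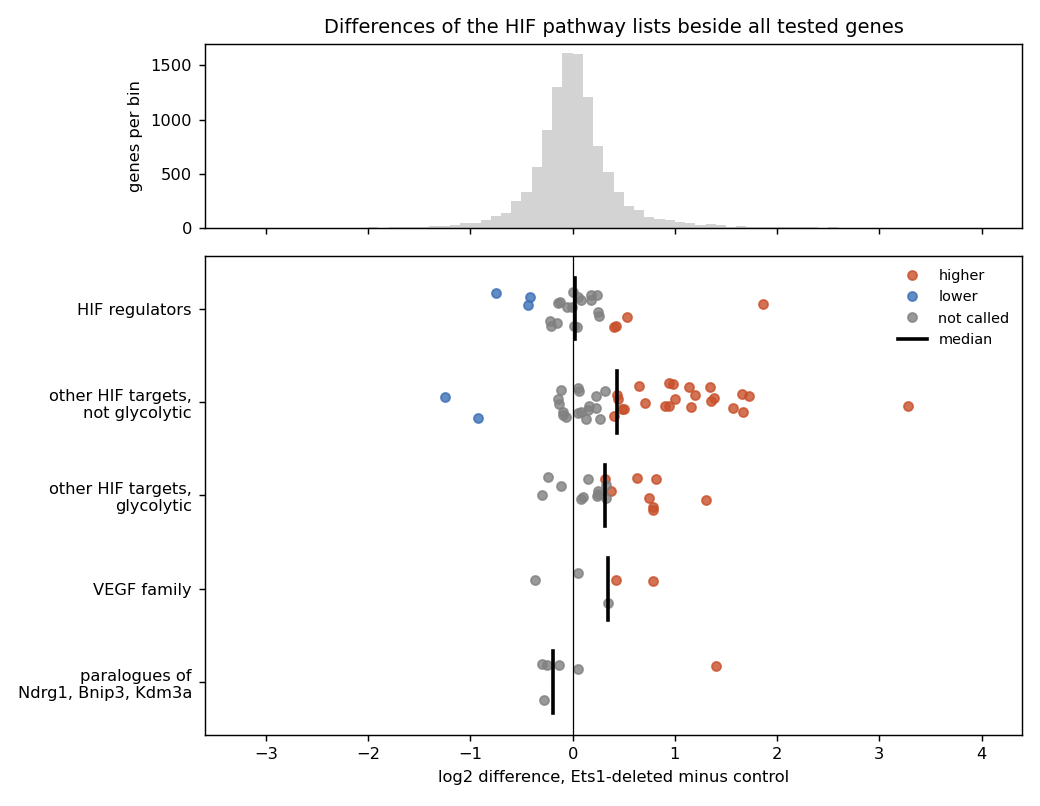
Log2 difference, Ets1-deleted minus control (horizontal axis), of all 10872 tested genes as a histogram (upper panel) and of each tested gene of 5 lists (lower panel, points shifted vertically at random, coloured by call, with the list median as a bar). Both lists of HIF targets have medians above 0 (0.44 and 0.32), while the regulators are centred near 0 (0.03).

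Markers of other blood cells moved with the same arrays. The counts below stand beside 13.9% of all tested genes called higher and 12.8% called lower. Of 10 tested myeloid markers all 10 were called higher (9 of the 9 that were bright in both controls), and the summed intensity of the 14 with a probe set was 2579 to 2823 units in the controls and 4826 to 4907 in the Ets1-deleted arrays, with Cd14 and Csf3r dim on all arrays. Of 9 tested mast cell and basophil markers 7 were called higher, with sums over 13 markers of 2589 to 2599 and 4196 to 4385 units, and Fcer1a and Tpsab1 dim on all arrays. Mcpt8, the brightest of them in the controls, lay the other way and was not called. It read 1337 and 1385 units in the controls and 1097 and 1193 in the deleted arrays (-0.25, limma adjusted p = 0.122). Tpsb2 (0.06) was not called either. Only 5 of the 9 were bright in both controls, of which 4 were called higher, while Cpa3, Hdc and Mitf passed the brightness filter only through the Ets1-deleted arrays. Without Cpa3, which read 85.86 and 78.3 units in the controls and 1497 and 1261 in the deleted arrays, the sums were 2503 to 2521 and 2888 to 2935 units. All 3 tested T cell markers (Cd3e, Cd3d and Cd3g) were called higher, 2 of them bright in both controls, with sums over 6 of 2300 to 2344 and 4438 to 4493 units, and Cd4, Cd8a and Cd5 dim on all arrays. Of 11 tested stromal markers 1 was called higher and 3 lower, with a median of -0.26, sums over 12 of 3299 to 3496 and 3534 to 3574 units, and Dcn dim on all arrays. The one called higher was Timp3, at 126.4 and 151.7 units in the controls and 878.7 and 750.6 in the deleted arrays, and without it the sums were 3148 to 3369 and 2655 to 2823 units, lower in the deleted arrays. ILC2 markers themselves summed to 24639 to 26640 and 30285 to 32397 units over 12 genes. The part of these cells in the values of the 10 genes was not tested. In such bulk RNA more cells of a type and more RNA per cell cannot be told apart, nor can fewer and less.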

How the data were processed

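Transcripts were measured in 4 samples, 2 per group, with 1 array each. The deposited intensity values were made by the authors with RMA, per the submitters' processing notes; the sources used here name neither software nor scaling. Values ran from 39.5 to 23291 units and were therefore read as linear and turned into log2; this scale is an inference. Array medians (96.5 to 97.7) were close, so nothing more was normalized.

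Of 45101 probe sets, 34958 carried 1 symbol in the platform annotation, 932 several and 9211 none; 64 controls of the array maker were left out. A gene was tested where its brightest probe set, by mean log2 intensity, reached the median of all probe sets (97.44 units). The test was limma 3.58.1 in R 4.3.3 (lmFit and eBayes), two-sided, over 10872 genes, with 2 residual and 9.77 prior degrees of freedom; lists are described by counts and medians only. With 2 arrays against 2, the smallest p of an exact permutation test is 0.333. The fit was also run on data simulated with its own estimated spread, which checks the code and cannot check that spread.

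All 10 genes are named, and from each pathway list the 4 genes of smallest p, with further list genes past the threshold; Vhl, Hif1an, Car9, Ddit4, Ldha, Slc2a3, Pfkfb3, Bnip2, the markers with values and the dim receptor genes were named after their values were seen. Members, lists and tests were chosen with earlier results of these data known. Alternatives were other normalizations, filters, probe set rules and variance models, a replicate block and leaving out each array.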

Additional observations from a re-analysis of the deposited data

How the results depend on the processing

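With 13 alternatives (2 renormalizations, a subtracted array floor, 2 filters, the mean over probe sets, 2 variance models, the replicate block and 4 arrays left out), 77 of 78 values of the 6 higher genes stayed higher and called. The exception was Egln1 with the mean over probe sets. With that mean Kdm3a was called lower in place of Arnt. The number of the 10 genes called lower fell from 2 to 1, by Arnt, with median centring, with the array floor subtracted and with a variance trend, and was 1 to 1 with an array left out. With each gene's own variance, which has 2 degrees of freedom, 0 of the 10 genes were called higher and 0 lower. Over all 10872 tested genes 13 were then called in place of 2900. Among the 6, the adjusted p of this ordinary t-test ran from 0.0691 for Egln3 to 0.191 for Egln1. The differences themselves do not depend on this choice. Single probe sets reversed Arnt (0.13) and Egln1 (-0.05); the cause was not tested.

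Regulators called higher went from 4 to 2 and lower from 3 to 1 with the array floor subtracted, and to 2 to 4 higher and 1 to 3 lower with an array left out. Glycolytic targets called lower were 0 to 1 with an array left out. The other target counts stayed within 1.5 times. The labels do not say whether arrays with the same replicate number share a batch, and their deviations correlated at 0.167 over genes, with 2 pairs. With these numbers as a replicate block, 6 of the 10 genes were called higher and 2 lower, as without it. Over all tested genes 3250 were then called in place of 2900, and glycolytic targets called higher went from 8 to 10. Whether a shared replicate effect exists was not tested. Genes with a mean under 97.44 units were not tested, and both controls of Nrp1 lay under that limit.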

Other observations

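Relatives of Vegfa and their receptors were measured too. Of 5 tested genes, 3 were bright in both controls, and of these 1 was called higher and 0 lower in the limma fit, where 26.7% of all tested genes were called. At an unadjusted limma p under 0.05, 4 of the 5 differed, beside 37.7% of all tested genes. That count includes Nrp1 and Pgf, which were not bright in both controls. Of the 3 that were, Vegfc and Nrp2 differed at that level in opposite directions, and Vegfb did not differ. Nrp1, a coreceptor for VEGF and semaphorins, read 80.39 and 90.46 units in the controls and 148.8 and 147 in the Ets1-deleted arrays. It passed the brightness filter only through the deleted arrays, so its call is not counted. Vegfc, a growth factor of lymphatic vessels, rose by 0.42 (limma adjusted p = 0.0333). Pgf gave 0.35 and Nrp2 -0.37, with limma adjusted p of 0.0527 and 0.0547. The signalling receptor genes Flt1, Kdr and Flt4 were dim and not tested, with no array above 84.46 units.

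Among 6 tested relatives of the other targets, only Ndrg2 was called (16.7%, beside 26.7% of all tested genes). It rose by 1.40 ± 0.13, from 216.1 and 173 units in the controls to 475.2 and 546.5 (limma adjusted p = 8.94e-06), beside the rise of Ndrg1. The remaining Ndrg genes lay below 0: Ndrg3 gave -0.25 and Ndrg4 -0.28 (limma adjusted p = 0.123 and 0.0815). Kdm3b, the closest relative of Kdm3a, gave -0.30 (limma adjusted p = 0.127), with groups that did not overlap. Bnip2 gave 0.05.

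The strings CCGGAAG and AGGAAG, each longer than the core that ETS factors bind, were searched on either strand. They were found in 5 of the 12 listed windows of 250 bases, beside 34.5% of all windows. The windows of Egln3 and Egln1 held 1 each, that of Arnt 2, the second of Egln2 3 and the second of Kdm3a 1. Hif1a, Bnip3 and both Vegfa windows held 0 of these strings. Shorter forms of the core were not searched, so 0 does not mean that the core is absent. Binding of Ets1 was not measured on these arrays.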
